A study of Homo sapiens with 14 samples.

Results

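HCC70 is a triple-negative breast cancer (TNBC) cell line, grown from a ductal carcinoma that lacks the estrogen, progesterone and HER2 receptors at clinical levels. The comparison described here set HCC70 cells that had received 10 µM ursolic acid (UA) for 48 h against HCC70 cells that had received vehicle for 48 h, with 1 RNA-seq library on each side. UA is a plant triterpenoid that the study used as a natural antagonist of a nuclear receptor, and the question was which genes it moved in TNBC cells. The members are the genes above 1 FPKM (fragments per kilobase of transcript, scaled to the mapped fragments of the library) in either of these libraries, 11864 of the 34998 gene symbols listed. The other HCC70 libraries used here are 10 µM UA for 24 h, 5 µM UA for 24 h and for 48 h, and vehicle for 24 h, and 10 µM UA or vehicle for 48 h in C4-2B prostate cancer cells was used for comparison. The HCC70 libraries, all of the 1 line grown in medium with serum, make 6 of the 14 libraries of the series. Every condition has 1 library, so no error and no p-value is given, and a library called higher or lower differs from its vehicle by at least 2-fold on the scale of log2(FPKM + 0.1). All log2 ratios below are differences on that scale, 10 µM UA over vehicle at 48 h unless said otherwise, and levels are FPKM, which are per length.

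Stressed epithelial cells respond through a few well known programs. Injury and cytokine signals act through NF-κB and AP-1, transcription factors that turn on chemokines and interleukins. A shortage of amino acids or a fault in the mitochondria or the endoplasmic reticulum (ER) acts through phosphorylated eIF2α and the factor ATF4, which is called the integrated stress response. Cells that stop dividing lose the mRNAs of replication and mitosis, which are made in bursts under the control of E2F factors and of complexes bound to the CHR element. Basal breast cells also carry keratins and can make proteins of the cornified envelope, the protein coat of the outer skin.

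The label was checked against marker genes. ESR1 was at 0.41 FPKM in 10 µM UA and 0.68 FPKM in vehicle at 48 h, PGR was listed at 0 in both, and ERBB2 was at 19.8 FPKM in 10 µM UA and 34.9 FPKM in vehicle. All 6 basal markers (KRT5, KRT14, KRT17, EGFR, TP63 and CDH3) were above 1 FPKM in both libraries, with a summed level of 1463 FPKM in 10 µM UA against 1933 FPKM in vehicle. That 10 µM UA sum was the lowest of the 6 HCC70 libraries, where the highest was 4933 FPKM. Of 5 markers of prostate luminal cells, TMPRSS2 alone was above 1 FPKM, at 40.9 FPKM in 10 µM UA and 47.6 FPKM in vehicle. Of 7 immune markers, CD14 and CD68 alone were above 1 FPKM, and PTPRC, the marker of all leukocytes, was listed at 0 in both 48 h libraries. The summed level of the immune markers was 386 FPKM in 10 µM UA and 364 FPKM in vehicle. Over the 6 libraries it ranged from 289 to 386 FPKM, with 10 µM UA at 48 h the highest. COL1A1 was the 1 fibroblast marker of 6 above 1 FPKM, 4 of the 6 were listed at 0 in every HCC70 library, and the 4 endothelial markers summed to 0.17 FPKM in 10 µM UA and 0.33 FPKM in vehicle.

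The library of 10 µM UA at 48 h stands apart from the other HCC70 libraries. It was at least 2-fold above the highest of the other 5 in 235 genes (1.98% of those tested) and at least 2-fold below the lowest in 644 genes (5.43%). Over the 12263 genes above 1 FPKM in any of the 6 libraries, it was 2-fold above all the rest in 235 and below all the rest in 687, and each of the other 5 was so in 8 to 33 and in 12 to 24 genes. Its summed FPKM was 881889, against 886438 in vehicle, and 11216 genes were above 1 FPKM, against 11546 in vehicle. The make-up of that sum differed: FTH1, LCN2, S100A7, PI3, S100A9 and S100A8, 6 highly expressed genes picked after their values were seen, took 17.9% of the summed FPKM in 10 µM UA and 6.74% in vehicle. Genes encoded in the mitochondrial genome took 28.9% in 10 µM UA and 44.4% in vehicle. Since FPKM are relative, these shares bear on every other gene, and the direction of weak list medians depended on the scaling as given where it occurs.

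Over all genes tested, the median log2 ratio was −0.20, with 4543 genes above 0 and 7305 below 0. At 2-fold, 807 genes (6.8%) were higher and 1580 (13.3%) were lower with 10 µM UA, and 6924 genes (58.4%) lay within 1.5-fold of vehicle. The lower genes were also the more numerous at 4-fold, with 199 higher and 247 lower, but not at 8-fold, with 76 higher and 54 lower. Of the genes past 2-fold, 66.2% were lower with the values as deposited. This share was 49.6% with the ratios centred on their median (1120 higher, 1103 lower), 57.2% with a trimmed mean (966 higher, 1292 lower) and 85.8% with the FPKM rescaled without the mitochondrially encoded genes (550 higher, 3311 lower, of 12703 genes). At the edge of the rule, the 143 genes with 1 to 1.1 FPKM in the higher library had a median of −0.13, and the 157 genes with 0.9 to 1 FPKM, just outside, had a median of −0.20.

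**Figure D1:**
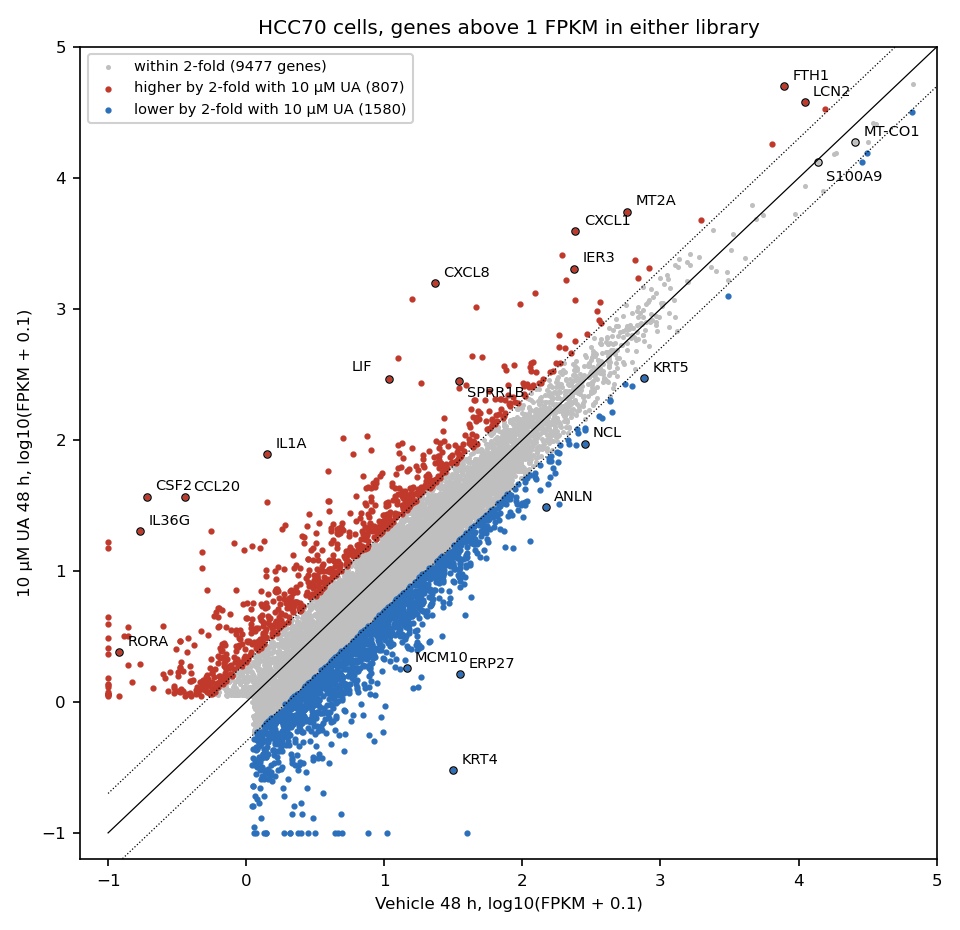
Level of each gene tested with 10 µM UA at 48 h (vertical axis) against its level in vehicle at 48 h (horizontal axis), both as log10(FPKM + 0.1), 1 point per gene and 1 library per axis. Points in colour are the 807 genes at least 2-fold higher and the 1580 at least 2-fold lower, the solid line marks equal levels and the dotted lines 2-fold. CXCL8 stands far above the diagonal and KRT4 far below it, while S100A9 lies on it.

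To describe the change by function, 49 lists of genes were counted at 2-fold and set beside the figures of all genes, which are 6.8% higher, 13.3% lower and a median of −0.20. The lists with the highest medians were neutrophil chemokines (3.21), integrated stress response regulators (1.71) and AP-1 and EGR factors (1.66). The lists with the lowest medians were mitosis and G2/M (−1.68), DNA repair and checkpoint (−1.23) and DNA replication (−1.10). In the plot of the lists, neutrophil chemokine, interleukin-1, colony-stimulating factor, AP-1, integrated stress response and glycolytic genes lie on the higher side, and proliferation, ribosome biogenesis, mitochondrial and interferon genes lie on the lower side, under every scaling tried.

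**Figure D2:**
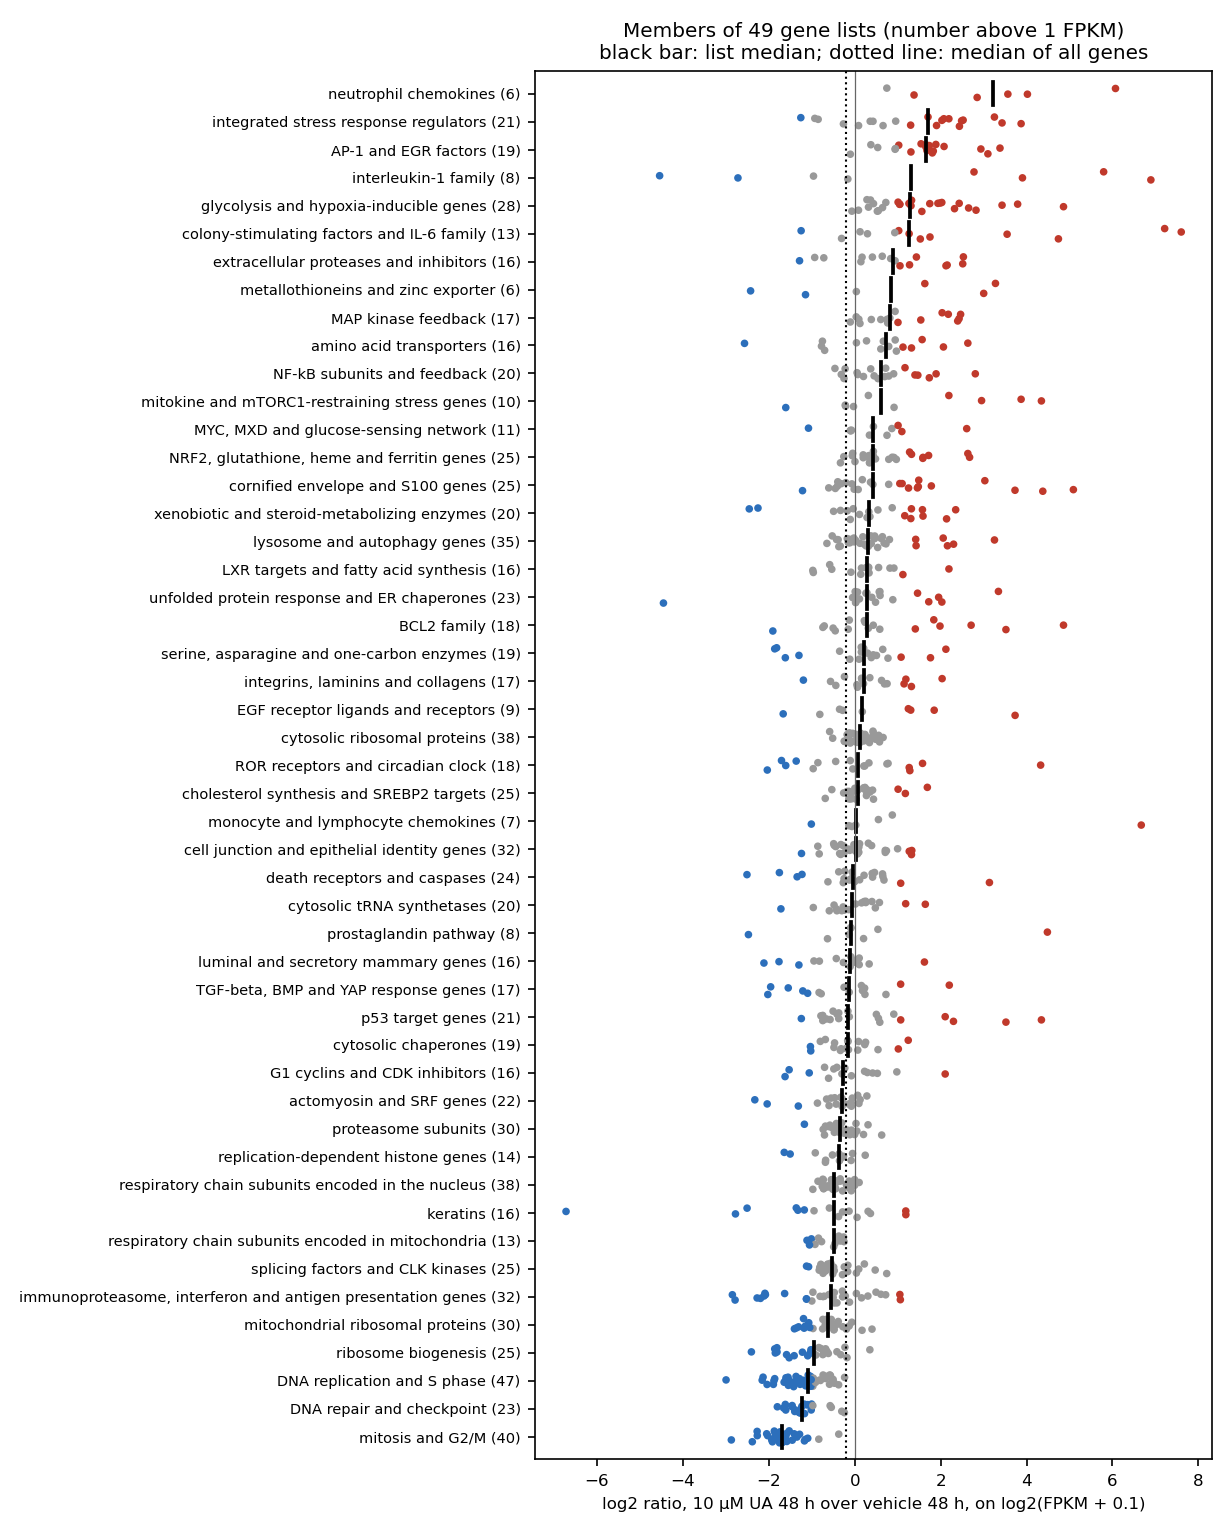
Log2 ratio of 10 µM UA over vehicle at 48 h in HCC70 cells, 1 point per tested gene of each list (number in brackets), red and blue where at least 2-fold higher and lower. Black bars are list medians and the dotted line is the median of all genes tested (−0.20). List medians run from −1.68 (mitosis) to 3.21 (neutrophil chemokines).

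The neutrophil chemokines were the list with the highest median. Of its 8 genes, 6 were tested, 5 were higher and none was lower. CXCL8 (interleukin-8), the main attractant of neutrophils, was at 47.1, 61.4 and 185 FPKM with vehicle, 5 and 10 µM UA at 24 h and at 23.2, 84.8 and 1568 FPKM at 48 h. Its 10 µM library at 48 h was thus above every other HCC70 library, with a log2 ratio of 6.07. CXCL1, which acts on the same receptor CXCR2, was at 588, 668 and 1693 FPKM at 24 h and at 242, 494 and 3930 FPKM at 48 h in the same order (4.02). CXCL3 had 14.8 FPKM in 10 µM UA against 1.16 FPKM in vehicle at 48 h (3.56), and CXCL2 had 28.5 FPKM against 3.87 FPKM in vehicle (2.85). At 24 h CXCL3 already had 12.5 FPKM in 10 µM UA against 3.27 FPKM in vehicle. CXCL2 had 25.4 FPKM against 9.01 FPKM in vehicle there. Of the 6 tested chemokines, 2 were at least 2-fold above the highest of the other 5 libraries with 10 µM UA at 48 h. CXCL1, CXCL2 and CXCL3 are close relatives in sequence, so the split of reads among them is uncertain. The vehicle itself was lower at 48 than at 24 h (list median −1.24), and the 4 genes named were above both vehicles with 10 µM UA at 48 h.

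The promoter of CXCL8 is shown because it holds, within 300 bases, short matches to the sites of both factors named above. It lies at chr4:73740319-73740618 on the plus strand of GRCh38.p14 (RefSeq), from 250 bases before to 50 after the annotated start. Capitals mark TGACTCA (AP-1, first base at −137 from the start), GGAATTTCC (NF-κB, −91) and TATAAA (core promoter box, −31).
CXCL8: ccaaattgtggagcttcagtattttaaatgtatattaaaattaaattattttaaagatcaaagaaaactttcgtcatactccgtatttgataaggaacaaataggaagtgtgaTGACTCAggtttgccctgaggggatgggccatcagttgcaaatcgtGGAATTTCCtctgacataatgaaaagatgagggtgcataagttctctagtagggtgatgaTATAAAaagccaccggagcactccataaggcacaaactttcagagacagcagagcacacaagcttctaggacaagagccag
A match says only that these letters occur in the window.

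Other cytokines of barrier tissue were also higher. CCL20, which attracts dendritic cells and Th17 cells through CCR6, was at 36.6 FPKM in 10 µM UA against 0.26 FPKM in vehicle (6.67, and 4.90 with a pseudocount of 1), and it was the 1 higher gene of 7 tested monocyte and lymphocyte chemokines. CCL2, the main monocyte attractant, was at 184, 164 and 563 FPKM with vehicle, 5 and 10 µM UA at 24 h and at 235, 504 and 344 FPKM at 48 h. It was therefore under 2-fold at 48 h with 10 µM (0.55), and its levels did not follow the dose there. CCL5, a lymphocyte attractant, was at 21.9 FPKM in 10 µM UA against 44.2 FPKM in vehicle at 48 h (−1.01), but vehicle at 24 h was at 19.5 FPKM, so that the ratio turned to 0.17 against that library.

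The interleukin-1 family split. Of 13 genes, 8 were tested, 4 were higher and 2 lower (median 1.31). IL1A, the alarmin released from damaged epithelium, was at 1.86, 1.83 and 9.71 FPKM with vehicle, 5 and 10 µM UA at 24 h and at 1.31, 4.46 and 78.2 FPKM at 48 h (5.79). IL1B, its secreted relative, was at 58.3 FPKM in 10 µM UA against 3.80 FPKM in vehicle (3.90). IL36G, which signals through its own receptor in keratinocytes, was at 20.1 FPKM against 0.07 FPKM in vehicle, a log2 ratio of 6.89 that was 4.30 with a pseudocount of 1, so its size rests on the near-zero vehicle level. IL1RN, the secreted antagonist of the IL-1 receptor, outside the rule for named genes and picked after its values were seen, was at 17.9 FPKM against 2.53 FPKM in vehicle. The lower members were alarmins too: IL33 was at 0.03 FPKM in 10 µM UA against 2.93 FPKM in vehicle (−4.54, and −1.93 with a pseudocount of 1), and IL18, also picked after its values were seen, was at 2.60 FPKM against 17.7 FPKM in vehicle (−2.72). IL1A, IL1B, IL36G and IL1RN are consecutive among the genes tested on chromosome 2, between positions 112773925 and 113134016 (GENCODE v44, hg38).

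Of 13 tested colony-stimulating factors and IL-6 family genes, 8 were higher and 1 lower (median 1.27). CSF2 (GM-CSF), a growth factor of granulocytes and macrophages, was at 0.09, 0.38 and 1.30 FPKM with vehicle, 5 and 10 µM UA at 24 h and at 0.09, 0.09 and 36.8 FPKM at 48 h. Its level at 48 h was thus seen with 10 µM alone, and the ratio of 7.60 (5.12 with a pseudocount of 1) rests on the near-zero vehicle level. LIF, an IL-6 family cytokine, was at 17.9, 25.2 and 64.4 FPKM with vehicle, 5 and 10 µM UA at 24 h and at 10.8, 27.4 and 291 FPKM at 48 h (4.74). IL23A, a subunit of interleukin-23, was listed at 0 in vehicle at 48 h and was at 14.8 FPKM in 10 µM UA, where the other HCC70 libraries held up to 0.76 FPKM. TNF, the cytokine that activates NF-κB in neighbouring cells, was at 22.2 FPKM in 10 µM UA against 1.81 FPKM in vehicle (3.55). IL6 itself was at 3.19 FPKM in 10 µM UA and 2.92 FPKM in vehicle (0.12), so the family did not move as a block. PTGS2, the inducible cyclooxygenase that makes prostaglandins, was the 1 higher gene of 8 tested in its pathway, at 1030 FPKM in 10 µM UA against 45.9 FPKM in vehicle, while PLA2G2A, a secreted phospholipase, was at 1.63 FPKM against 9.52 FPKM in vehicle (−2.48).

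Regulators of these cytokines were in part higher as well, by smaller ratios. Of 20 tested NF-κB subunits and feedback genes, 6 were higher and none lower (median 0.62). The subunits themselves, outside the rule for named genes, were all under 2-fold: NFKB2 (0.91), RELB (0.79), RELA (0.70), NFKB1 (−0.22) and REL (−0.31). TNFAIP3 (A20), which switches NF-κB signalling off, was at 23.3 FPKM in 10 µM UA against 3.24 FPKM in vehicle (2.81). NFKBIA, the inhibitor IκBα, was at 384 FPKM against 115 FPKM in vehicle (1.74). Vehicle at 24 h held 220 FPKM of it, and the ratio against that library was 0.81. Of 19 tested AP-1 and EGR genes, 14 were higher and none lower. FOSL1 (FRA1), an AP-1 subunit of basal breast cells, was at 18.6, 21.1 and 34.3 FPKM with vehicle, 5 and 10 µM UA at 24 h and at 7.89, 22.1 and 83.2 FPKM at 48 h (3.38). IER3, an immediate early gene, was at 2033 FPKM in 10 µM UA against 237 FPKM in vehicle (3.10), and ATF3, a stress-induced repressor, was at 33.9 FPKM against 7.94 FPKM in vehicle (2.08). FOS (1.89), JUN (1.74) and EGR1 (1.68) had smaller ratios. Of 17 tested MAP kinase feedback genes, 7 were higher and none lower (median 0.82), which are phosphatases and adaptors that ERK signalling induces against itself. DUSP6, the phosphatase that inactivates ERK, was at 46.6 FPKM in 10 µM UA against 8.56 FPKM in vehicle (2.43), and DUSP5, its nuclear relative, was at 54.6 FPKM against 11.99 FPKM in vehicle (2.18). Ligands of the EGF receptor, which acts upstream of these kinases, were mostly higher too. HBEGF was at 78.6 FPKM in 10 µM UA against 5.82 FPKM in vehicle (3.73), AREG at 10.1 FPKM against 2.73 FPKM in vehicle (1.85) and TGFA at 23.9 FPKM against 9.63 FPKM in vehicle (1.30). EGFR, their receptor, was at 43.4 FPKM in 10 µM UA and 38.4 FPKM in vehicle, and BTC, another ligand, was at 0.42 FPKM against 1.55 FPKM in vehicle (−1.67, and −0.84 with a pseudocount of 1).

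**Figure D3:**
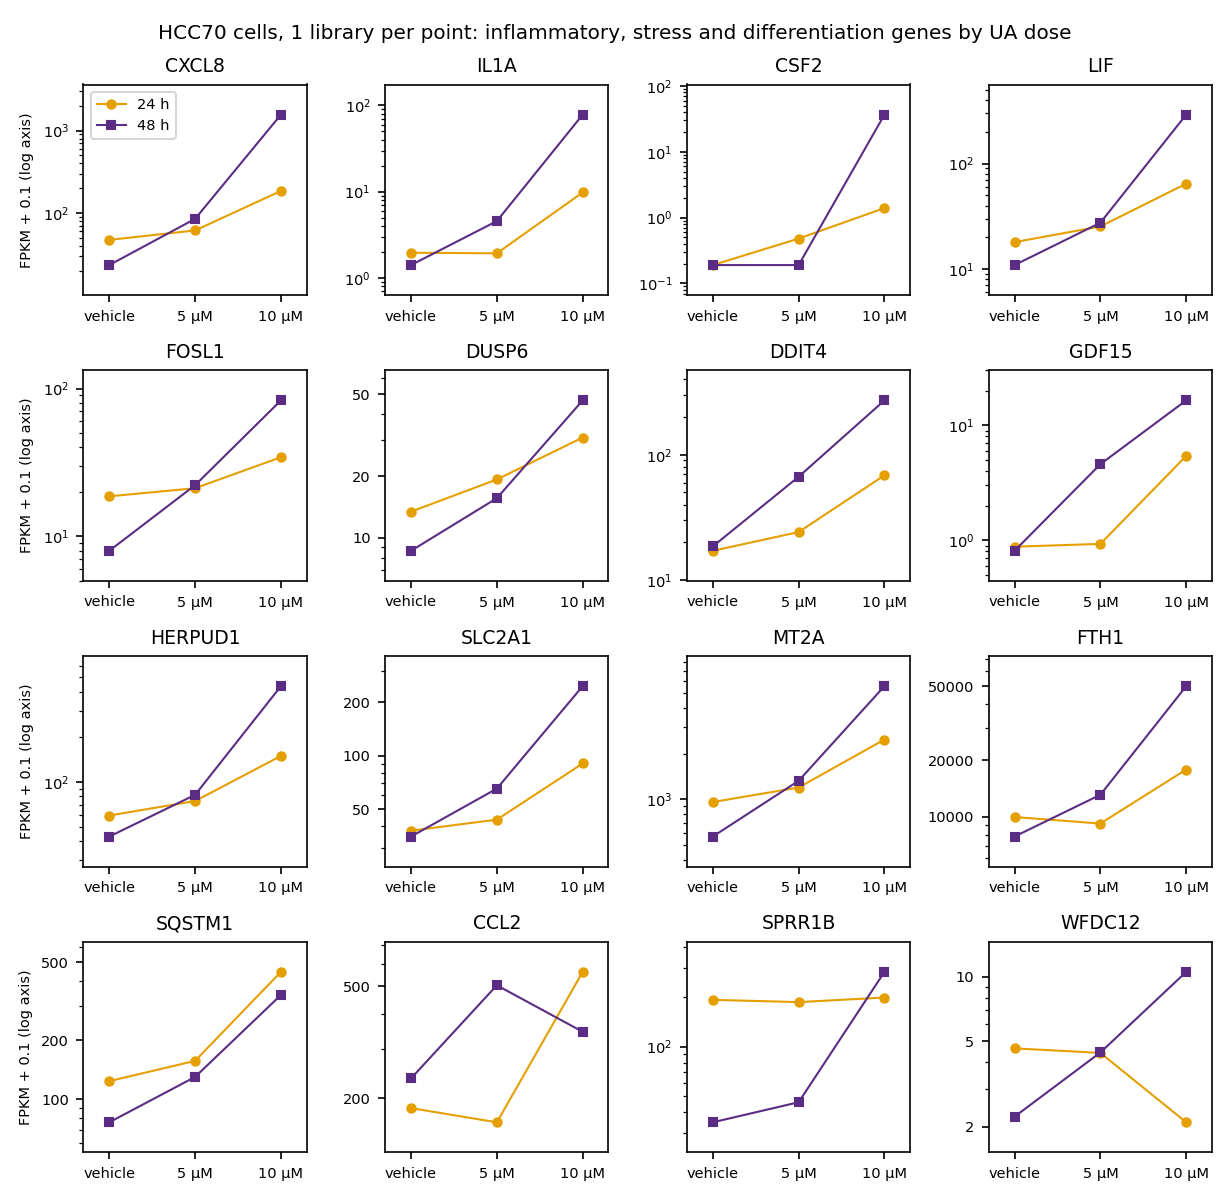
FPKM + 0.1 (log axis, its range set for each gene) of 16 genes with vehicle, 5 and 10 µM UA at 24 and 48 h in HCC70 cells, 1 library per point. For most genes the 10 µM library at 48 h is the highest, as for CXCL8 at 1568 FPKM, whereas CCL2 peaked at 563 FPKM with 10 µM at 24 h and SQSTM1 at 448 FPKM there.

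The integrated stress response list had 21 genes, all tested, of which 12 were higher and 1 lower. ATF4, its central factor, was at 501 FPKM in 10 µM UA against 203 FPKM in vehicle (1.30). Its targets had larger ratios: DDIT3 (CHOP), a factor of stress-induced death, was at 26.95 FPKM against 2.74 FPKM in vehicle (3.25), and CHAC1, which degrades glutathione, was at 11.1, 16.1 and 29.7 FPKM with vehicle, 5 and 10 µM UA at 24 h and at 7.86, 16.6 and 43.0 FPKM at 48 h (2.44). TRIB3, a pseudokinase that feeds back on ATF4, was at 74.0 FPKM in 10 µM UA against 22.6 FPKM in vehicle (1.71). NDRG1, a stress and hypoxia gene, reached 1321 FPKM against 123 FPKM in vehicle (3.43). ATF5, another factor of the response, did not share the direction, at 7.58 FPKM in 10 µM UA against 14.5 FPKM in vehicle (−0.93). The 1 lower gene, EIF2AK2, picked after its values were seen, encodes PKR, an eIF2α kinase that interferon also induces (−1.26).

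The promoter of CHAC1 is shown because ATF4 binds the CARE element in this gene and a match stands in the window. It lies at chr15:40953221-40953520 on the plus strand (GRCh38.p14, RefSeq), and capitals mark TTGCATCA, the reverse complement of the searched TGATGNAA, with its first base at −209.
CHAC1: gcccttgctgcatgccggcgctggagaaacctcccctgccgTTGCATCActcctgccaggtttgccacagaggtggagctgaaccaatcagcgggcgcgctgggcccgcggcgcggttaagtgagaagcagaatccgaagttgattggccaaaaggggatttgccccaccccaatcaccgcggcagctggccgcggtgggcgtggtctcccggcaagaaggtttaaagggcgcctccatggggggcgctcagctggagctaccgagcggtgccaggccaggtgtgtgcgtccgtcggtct
A CARE match was found in 2 of 18 promoters of the list (11.1%), against 1.59% of all genes tested.

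Genes that restrain growth under stress followed. DDIT4 (REDD1), an inhibitor of mTORC1, was at 17.0, 24.1 and 68.5 FPKM with vehicle, 5 and 10 µM UA at 24 h and at 18.5, 66.7 and 272 FPKM at 48 h (3.87). SESN2, a leucine sensor that acts on the same kinase, was at 33.1 FPKM in 10 µM UA against 7.16 FPKM in vehicle (2.19). GDF15, a hormone secreted under mitochondrial stress, was at 16.4 FPKM against 0.71 FPKM in vehicle (4.35), and FGF21, another such hormone, was at 4.39 FPKM against 0.48 FPKM in vehicle (2.95, and 1.86 with a pseudocount of 1). Their list counted 4 higher and 1 lower of 10 tested, with a median of 0.62. It was −0.20 with the FPKM rescaled without mitochondrially encoded genes, where the filter was applied anew and 12703 genes passed. That rescaling shifted the ratios by a median of −0.35, so the change of sign is not an effect of scaling alone.

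Amino acid supply moved in part. Of 16 tested amino acid transporters, 5 were higher and 1 lower (median 0.73). SLC7A11, the cystine importer that feeds glutathione, was at 9.95 FPKM in 10 µM UA against 1.52 FPKM in vehicle (2.63), and SLC7A5, the importer of leucine, was at 256 FPKM against 103 FPKM in vehicle (1.32). SLC1A3, a glutamate and aspartate importer, was the 1 lower gene, at 1.20 FPKM against 7.60 FPKM in vehicle (−2.57). Among 19 tested genes of serine, asparagine and one-carbon metabolism, 3 were higher and 4 lower. ASNS, the asparagine synthetase, was at 150 FPKM in 10 µM UA against 44.1 FPKM in vehicle (1.76), and CTH, which makes cysteine, was at 20.5 FPKM against 4.64 FPKM in vehicle (2.12). PHGDH, the first enzyme of serine synthesis, was at 162 FPKM in 10 µM UA and 151 FPKM in vehicle (0.10), and TYMS, the thymidylate synthase of S phase, was at 14.3 FPKM against 52.3 FPKM in vehicle (−1.86). The 20 cytosolic tRNA synthetases had 2 higher genes and 1 lower gene.

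The ER stress list counted 5 higher and 1 lower of 23 tested. HERPUD1, part of the machinery that removes misfolded ER proteins, was at 59.5, 74.4 and 149 FPKM with vehicle, 5 and 10 µM UA at 24 h and at 43.0, 81.9 and 438 FPKM at 48 h (3.34). DNAJB9, an ER co-chaperone, was at 23.9 FPKM in 10 µM UA against 6.10 FPKM in vehicle (1.95). HSPA5 (BiP), the main ER chaperone, was under 2-fold at 207 FPKM against 112 FPKM in vehicle (0.89), and HSP90B1 had 136 FPKM in 10 µM UA and 133 FPKM in vehicle. ERP27, an ER protein of the disulfide isomerase family, was the 1 lower gene (−4.45). The list median of 0.28 turned to −0.06 with the rescaling without mitochondrially encoded genes.

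Iron and metal storage genes were among the most abundant mRNAs that were higher. FTH1, the ferritin heavy chain, was at 9960, 9194 and 17884 FPKM with vehicle, 5 and 10 µM UA at 24 h and at 7831, 13104 and 49966 FPKM at 48 h (2.67), which was 5.67% of the summed FPKM in 10 µM UA and 0.883% in vehicle at 48 h. FTH1 has many processed pseudogenes, so its level is uncertain to the extent that reads were shared with them. The NRF2 and glutathione list it belongs to counted 7 higher and none lower of 25 tested (median 0.43). TXNRD1, a thioredoxin reductase, was at 161 FPKM in 10 µM UA against 48.9 FPKM in vehicle (1.72). The textbook NRF2 targets NQO1 (0.48), HMOX1 (0.91) and GCLM (0.01) were under 2-fold. MT2A, the main metallothionein, was at 5534 FPKM in 10 µM UA against 571 FPKM in vehicle (3.28), and MT1X was at 1658 FPKM against 207 FPKM in vehicle. MT1E was lower, at 0.55 FPKM against 3.39 FPKM in vehicle (−2.42, and −1.50 with a pseudocount of 1), and so was SLC30A1, the zinc exporter that metal also induces (−1.15). Metallothionein genes are near copies of each other, and their levels are uncertain for that reason.

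Of 35 tested lysosome and autophagy genes, 6 were higher and none lower, with a median of 0.32 that turned to −0.05 with the rescaling without mitochondrially encoded genes. SQSTM1 (p62), the autophagy receptor, was at 124, 157 and 448 FPKM with vehicle, 5 and 10 µM UA at 24 h and at 76.4, 130 and 341 FPKM at 48 h (2.16), so the highest level was that of 10 µM at 24 h. ULK1, the kinase that starts autophagy, was at 27.6 FPKM in 10 µM UA against 5.52 FPKM in vehicle at 48 h (2.30), and MAP1LC3B, the LC3 protein of autophagosome membranes, was at 42.6 FPKM against 15.9 FPKM in vehicle (1.42).

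Glycolytic and hypoxia-inducible genes were higher as a list: 18 of 28 tested, with none lower and a median of 1.29. SLC2A1 (GLUT1), the glucose importer, was at 37.6, 43.5 and 90.3 FPKM with vehicle, 5 and 10 µM UA at 24 h and at 34.8, 65.1 and 247 FPKM at 48 h (2.82). CA9, a carbonic anhydrase and hypoxia marker, was at 79.6 FPKM in 10 µM UA against 12.6 FPKM in vehicle (2.65). VEGFA, the angiogenic factor, was at 367 FPKM against 73.2 FPKM in vehicle (2.32). Secreted vessel factors were thus among the higher genes of the list, and ADM, the vasodilator adrenomedullin, was at 15.3 FPKM in 10 µM UA against 1.01 FPKM in vehicle (3.79). LDHA, the lactate dehydrogenase, was under 2-fold at 445 FPKM against 284 FPKM in vehicle (0.65). MXD1, an antagonist of MYC at shared DNA sites, was at 19.3 FPKM in 10 µM UA against 3.09 FPKM in vehicle (2.61), while MYC was at 57.9 FPKM in 10 µM UA and 45.7 FPKM in vehicle (0.34).

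Lipid genes moved little as lists. Of 25 tested cholesterol synthesis and SREBP2 target genes, 3 were higher and none lower (median 0.07, and −0.28 with the rescaling without mitochondrially encoded genes). The higher ones include genes of feedback and transport. INSIG1, the feedback regulator, was at 78.4 FPKM in 10 µM UA against 34.6 FPKM in vehicle (1.18), and STARD4, a sterol carrier, was at 4.85 FPKM against 2.36 FPKM in vehicle (1.01). HMGCS1 (0.28) and SQLE (0.07), enzymes of the synthesis itself, were near vehicle. ABCG1, an LXR target that exports cholesterol, was at 6.53 FPKM in 10 µM UA against 1.35 FPKM in vehicle (2.19), and SCD, the fatty acid desaturase, was at 262 FPKM against 120 FPKM in vehicle (1.12).

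The epithelial genes went apart by class. Of 16 tested keratins, 6 were lower and 2 higher (median −0.48). KRT4, a keratin of wet stratified epithelia, was at 26.5, 25.2 and 5.72 FPKM with vehicle, 5 and 10 µM UA at 24 h and at 31.6, 9.87 and 0.20 FPKM at 48 h (−6.72, and −4.76 with a pseudocount of 1). KRT5, the basal keratin, was at 1485, 1511 and 965 FPKM at 24 h and at 761, 648 and 296 FPKM at 48 h in the same order (−1.36), and KRT14, its partner, was at 2.50 FPKM in 10 µM UA against 17.7 FPKM in vehicle at 48 h (−2.78). KRT17, a keratin of injured epithelium, was at 2420, 2869 and 1753 FPKM with vehicle, 5 and 10 µM UA at 24 h and at 573, 659 and 738 FPKM at 48 h (0.37), so its largest difference was that between the times. KRT5 and KRT14 were also lower in vehicle at 48 than at 24 h, by −0.96 and −1.74. The cornified envelope and S100 genes counted 11 higher and 1 lower of 25 tested (median 0.42). SPRR1A, a small proline-rich precursor of the envelope, was at 104 FPKM in 10 µM UA against 4.91 FPKM in vehicle (4.38). SPRR1B was at 284 FPKM against 34.7 FPKM in vehicle at 48 h (3.03), but vehicle at 24 h already held 192 FPKM. SPRR2A (3.73) and SPRR2D (5.09) are near-identical family members and uncertain as single genes. The neutrophil-type alarmins S100A8 (−0.01) and S100A9 (−0.07) were level with vehicle at 48 h. Junction and epithelial identity genes moved little, with 3 higher and 1 lower of 32 and CDH1 (E-cadherin) at 161 FPKM in 10 µM UA and 153 FPKM in vehicle.

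Genes that act outside the cell were also higher. Of 16 tested extracellular proteases and inhibitors, 7 were higher and 1 lower (median 0.89). PLAU, the urokinase that activates plasmin, was at 42.5 FPKM in 10 µM UA against 7.28 FPKM in vehicle (2.53), and PLAUR, its receptor, was at 203 FPKM against 45.6 FPKM in vehicle (2.15). ITGA5, the fibronectin receptor subunit, was at 234 FPKM against 57.2 FPKM in vehicle (2.03), and of the laminin-332 subunits LAMB3 (1.32) was past 2-fold while LAMA3 (0.62) was not. INHBA, the activin A subunit, was at 20.96 FPKM in 10 µM UA against 4.48 FPKM in vehicle (2.20). The TGF-beta, BMP and YAP response list it belongs to had 2 higher and 5 lower of 17 tested, with a median of −0.13 that was above that of all genes. Among the lower ones were CCN1, a matrix protein and YAP target, at 4.29 FPKM against 17.8 FPKM in vehicle (−2.02), and ID3, a BMP target, at 25.8 FPKM against 101 FPKM in vehicle (−1.96). TAGLN, a smooth muscle type actin-binding protein, was at 1.28 FPKM in 10 µM UA against 5.57 FPKM in vehicle (−2.04), beside 35.7 FPKM in vehicle at 24 h.

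The genes of cell division were lower as groups. Of 40 mitosis and G2/M genes, 38 were lower by 2-fold and none higher, of 47 replication genes 30 were lower and none higher, and of 23 repair and checkpoint genes 18 were lower and none higher. CDCA3, which promotes entry into mitosis, was at 28.9, 36.2 and 27.1 FPKM with vehicle, 5 and 10 µM UA at 24 h and at 29.5, 21.04 and 5.57 FPKM at 48 h (−2.38). ANLN, the anillin of the cleavage furrow, was at 164, 170 and 111 FPKM at 24 h and at 147, 116 and 30.5 FPKM at 48 h in the same order (−2.27). DLGAP5, a spindle protein, was at 6.06 FPKM in 10 µM UA against 29.7 FPKM in vehicle at 48 h (−2.27). Among replication genes, RFC3, a subunit of the clamp loader, was at 3.09 FPKM against 14.1 FPKM in vehicle (−2.16), and UHRF1, which maintains DNA methylation, was at 1.36 FPKM against 5.91 FPKM in vehicle (−2.04). FANCI, of the crosslink repair pathway, was at 5.85 FPKM against 18.1 FPKM in vehicle (−1.62). In RNA from a whole culture, fewer cells in a given state and less RNA per cell cannot be told apart.

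At 24 h the same lists were close to vehicle: with 10 µM UA the medians were −0.27 for mitosis and −0.29 for replication, and with 5 µM at 48 h, against the same vehicle library, they were −0.17 and −0.22. The regulators of the G1 phase did not share the pattern, with 1 higher and 3 lower of 16 tested. CDKN1A (p21), the inhibitor of cyclin-dependent kinases, was at 173, 201 and 328 FPKM with vehicle, 5 and 10 µM UA at 24 h and at 86.6, 141 and 373 FPKM at 48 h (2.11). CCND1 (cyclin D1) was at 53.3 FPKM in 10 µM UA and 39.9 FPKM in vehicle (0.42), CCNE1 (cyclin E1) was at 13.7 FPKM and 11.6 FPKM in vehicle (0.23), and CCNE2 was at 6.23 FPKM against 18.2 FPKM in vehicle (−1.53). MDM2, the p53 target that degrades p53, was at 7.36 FPKM in 10 µM UA and 8.23 FPKM in vehicle (−0.16), and the p53 target list had 5 higher and 1 lower of 21 tested.

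The promoter of CDCA3 is shown as that of a mitotic gene with both elements that mark this class, a CHR (TTTGAA) and a CCAAT box upstream of it. It lies at chr12:6851237-6851536 on the minus strand (GRCh38.p14, RefSeq), and capitals mark CCAAT with its first base at −37 and TTTGAA at −3.
CDCA3: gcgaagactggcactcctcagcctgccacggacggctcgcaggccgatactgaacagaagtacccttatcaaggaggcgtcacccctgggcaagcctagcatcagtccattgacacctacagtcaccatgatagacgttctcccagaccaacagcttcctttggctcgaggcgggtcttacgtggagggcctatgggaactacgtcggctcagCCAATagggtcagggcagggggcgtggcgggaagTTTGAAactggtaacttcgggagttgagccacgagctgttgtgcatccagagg
A CHR match was found in 25 of 35 promoters of the mitosis list (71.4%), against 9.6% of all genes tested, and a CCAAT match in 27 of 35 (77.1%), against 36.9%.

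The machinery that makes ribosomes was lower, while the ribosomal proteins were not. Of 25 ribosome biogenesis genes, 12 were lower and none higher (median −0.95). NCL (nucleolin), the major nucleolar protein, was at 371, 374 and 281 FPKM with vehicle, 5 and 10 µM UA at 24 h and at 282, 196 and 93.8 FPKM at 48 h (−1.59). NOP56, a box C/D snoRNP protein, was at 11.0 FPKM in 10 µM UA against 38.9 FPKM in vehicle at 48 h (−1.81), and POLR1B, a subunit of RNA polymerase I, was at 1.29 FPKM against 4.91 FPKM in vehicle (−1.85). Of 38 cytosolic ribosomal protein genes, none passed 2-fold in either direction, with a median of 0.13 that was −0.22 with the rescaling without mitochondrially encoded genes. Mitochondrial ribosomal proteins had 8 lower and none higher of 30 (median −0.63), such as MRPL12 at 13.8 FPKM against 34.3 FPKM in vehicle (−1.31). Nuclear genes of the respiratory chain had none past 2-fold of 38 but a median of −0.48, and the 13 mitochondrially encoded genes had 3 lower and a median of −0.49. MT-ATP6, an ATP synthase subunit, was at 13307 FPKM in 10 µM UA against 28756 FPKM in vehicle (−1.11). Splicing factors (2 lower of 25, median −0.54) and proteasome subunits (1 lower of 30, median −0.35) had few genes past 2-fold.

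**Figure D4:**
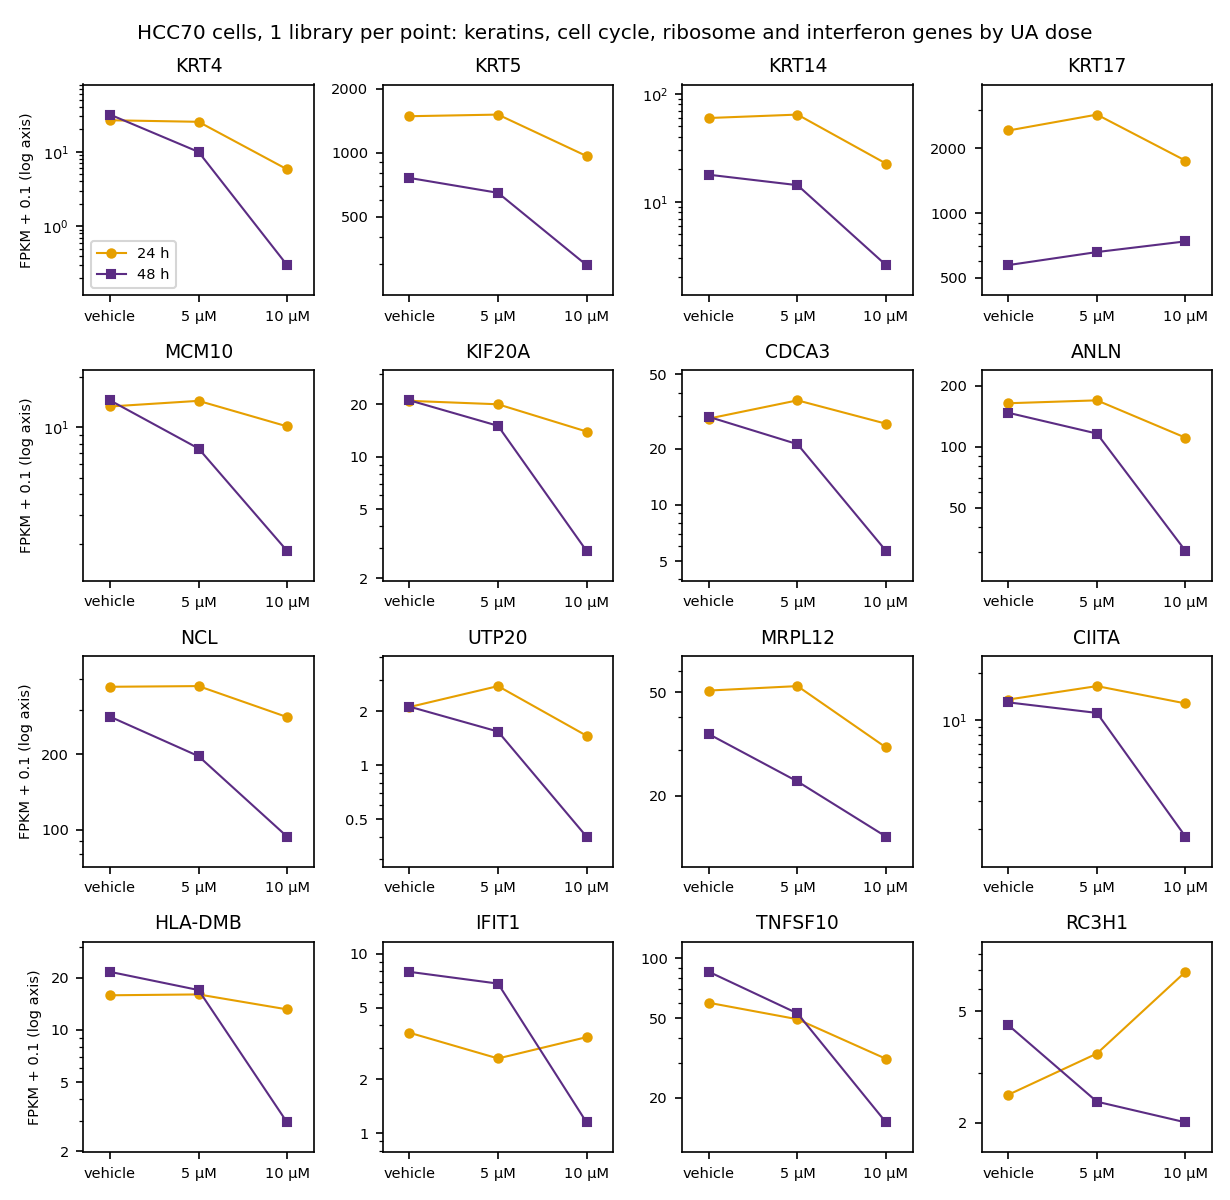
FPKM + 0.1 (log axis, its range set for each gene) of 16 genes with vehicle, 5 and 10 µM UA at 24 and 48 h in HCC70 cells, 1 library per point. For most genes the 10 µM library at 48 h is the lowest, as for CDCA3 at 5.57 FPKM, while KRT4 was lower already with 10 µM at 24 h (5.72 FPKM), and KRT17 and RC3H1 follow other courses over time and dose.

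Interferon and antigen presentation genes were also lower as a group. Of 32 tested, 10 were lower and 2 higher (median −0.55). CIITA, the master regulator of MHC class II, was at 13.4, 16.3 and 12.6 FPKM with vehicle, 5 and 10 µM UA at 24 h and at 12.8, 11.0 and 1.69 FPKM at 48 h (−2.85). HLA-DMB, which loads peptides on class II molecules, was at 2.83 FPKM in 10 µM UA against 21.5 FPKM in vehicle at 48 h (−2.88). IFIT1, an antiviral protein, was at 1.05 FPKM against 7.83 FPKM in vehicle (−2.79), IFIT3 at 2.24 FPKM against 11.2 FPKM in vehicle (−2.27), and the vehicle level of IFIT1 at 24 h was 3.53 FPKM. ISG15, a ubiquitin-like protein that interferon induces, was under 2-fold at 74.8 FPKM in 10 µM UA against 104 FPKM in vehicle (−0.48).

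Of 18 tested BCL2 family genes, 6 were higher and 1 lower, with a median of 0.28 that was −0.07 with the rescaling without mitochondrially encoded genes. BBC3 (PUMA), a BH3-only killer protein, was at 3.24, 3.67 and 10.0 FPKM with vehicle, 5 and 10 µM UA at 24 h and at 1.73, 3.34 and 20.9 FPKM at 48 h (3.52). BCL2A1, a protective member, was at 2.32 FPKM in 10 µM UA against 0.27 FPKM in vehicle (2.71, and 1.39 with a pseudocount of 1), and the protective MCL1 (−0.15) and BCL2L1 (0.32) were near vehicle. Of 24 death receptor and caspase genes, 2 were higher and 4 lower, shares near those of all genes. TNFRSF10B (DR5), a receptor of TRAIL, was at 13.2 FPKM in 10 µM UA against 6.24 FPKM in vehicle (1.07), whereas TNFSF10, TRAIL itself, was at 14.9 FPKM against 85.5 FPKM in vehicle (−2.51). CASP1, the caspase that matures IL-1β and IL-18, was at 6.18 FPKM against 21.1 FPKM in vehicle (−1.75).

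Of 18 tested genes of ROR receptors and the circadian clock, 4 were higher and 4 lower. RORA, a nuclear receptor of the clock, was at 0.03, 0.15 and 0.19 FPKM with vehicle, 5 and 10 µM UA at 24 h and at 0.02, 0.81 and 2.31 FPKM at 48 h, a log2 ratio of 4.33 (1.70 with a pseudocount of 1) that rests on a vehicle level near 0. NR1D1 (REV-ERBα), a repressor of the clock, was at 35.6 FPKM in 10 µM UA against 11.8 FPKM in vehicle (1.58), and it was among the higher ones. PER3, a period gene of the clock, was at 2.58 FPKM in 10 µM UA against 10.9 FPKM in vehicle (−2.04), and CIART, a circadian repressor, was at 2.12 FPKM against 6.66 FPKM in vehicle (−1.61).

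Among the 20 genes with the largest ratios (3.73 to 7.60, among genes above 5 FPKM in either library), 4 stand outside the groups above. CYP3A5, a drug-metabolizing cytochrome, was at 33.3 FPKM in 10 µM UA against 1.32 FPKM in vehicle (4.56). RND1, a small GTPase, was at 14.3 FPKM against 0.87 FPKM in vehicle (3.89). RHCG, an ammonium channel, was at 106 FPKM against 7.44 FPKM in vehicle (3.82), and TNFRSF9, the costimulatory receptor 4-1BB, was at 7.07 FPKM against 0.42 FPKM in vehicle (3.79, and 2.51 with a pseudocount of 1). All 20 were at least 2-fold above the highest of the other 5 HCC70 libraries, and 16 were at least 2-fold higher with 10 µM UA at 24 h as well. Among the 20 with the smallest ratios (−6.72 to −2.87) were IL22RA2, a decoy receptor of interleukin-22, at 0.40 FPKM in 10 µM UA against 8.34 FPKM in vehicle (−4.08), and MOGAT2, an acyltransferase of triglyceride synthesis, at 0.49 FPKM against 9.74 FPKM in vehicle (−4.06). TAF9B, a subunit of transcription initiation complexes, was at 7.50, 11.5 and 8.29 FPKM with vehicle, 5 and 10 µM UA at 24 h and at 7.62, 5.93 and 0.46 FPKM at 48 h (−3.79), so its low level appeared in the 1 library alone. EFEMP1, a matrix protein, was at 1.21 FPKM in 10 µM UA against 17.5 FPKM in vehicle (−3.75), and DMBT1, a mucosal scavenger receptor, at 4.51 FPKM against 38.6 FPKM in vehicle (−3.07). Of these 20 genes, 19 were at least 2-fold below the lowest of the other 5 libraries, and 9 were at least 2-fold lower at 24 h. Both sets of 20 were chosen by the ratio of this same library, so its distance from the others is largely set by the choice. Of all genes past 2-fold, 235 of the 807 higher and 644 of the 1580 lower ones lay 2-fold outside the other 5 libraries.

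Xenobiotic, steroid and retinoid enzymes were found on both sides, with 7 higher and 2 lower of 20 tested. CYP24A1, which degrades vitamin D, was at 43.3 FPKM in 10 µM UA against 8.41 FPKM in vehicle (2.35). HSD11B2, which inactivates cortisol, was at 3.07 FPKM against 17.3 FPKM in vehicle (−2.46), and ALDH1A1, a retinal dehydrogenase, was at 7.89 FPKM against 38.0 FPKM in vehicle (−2.25). CYP1A1, the dioxin-inducible cytochrome, was at 9.76 FPKM in 10 µM UA against 4.30 FPKM in vehicle at 48 h (1.16), but vehicle at 24 h held 12.5 FPKM, and the ratio against that library was −0.35.

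Luminal and secretory mammary genes had 1 higher and 3 lower of 16 tested, shares near those of all genes (6.8% and 13.3%). Their median of −0.10 was above that of all genes (−0.20). WFDC2, a secreted protease inhibitor known as HE4, was the higher one, at 1123 FPKM in 10 µM UA against 365 FPKM in vehicle (1.62). LTF, the iron-binding lactoferrin of milk, was at 4.51 FPKM against 19.9 FPKM in vehicle (−2.11). FOLR1, a folate receptor, was at 0.28 FPKM against 1.19 FPKM in vehicle (−1.76, and −0.77 with a pseudocount of 1). MUC4, a membrane mucin, was at 0.70 FPKM against 1.87 FPKM in vehicle (−1.30, and −0.76 with a pseudocount of 1). Vehicle at 24 h held less of these lower genes, at 8.49 FPKM for LTF, 0.48 FPKM for FOLR1 and 1.07 FPKM for MUC4. Against that library the log2 ratio was −0.90 for LTF and −0.55 for MUC4, both under 2-fold.

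Some of the genes past 2-fold stood side by side in the genome. Runs of at least 4 consecutive tested genes that moved the same way included 7 higher SPRR genes on chromosome 1 (152984081 to 153113516), the 4 higher chemokine genes CXCL1, CXCL5, CXCL3 and CXCL2 on chromosome 4 (73869393 to 74099196), and IFIT2, IFIT3, IFIT1 and IFIT5, all lower, on chromosome 10 (89283694 to 89421605). IFIT5 was at −1.17, and at −0.65 with a pseudocount of 1. These 3 runs are families of related genes, for which the split of shared reads is uncertain. MGP, ERP27, ARHGDIB and RERG, lower on chromosome 12 (14880864 to 15348675), are not related to each other in sequence. Positions were taken from GENCODE v44 (hg38), and the genes of the runs were picked after their values were seen.

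The ratios also varied with properties of the transcripts. Among coding genes sorted by the GC content of the transcript into 5 equal groups, the medians, from low to high GC, were −0.41, −0.33, −0.21, −0.11 and 0.02 with 10 µM UA at 48 h, whereas with 10 µM UA at 24 h they were −0.07, −0.06, −0.08, −0.06 and −0.07. The group with the lowest GC content had 3.39% of its genes higher and 18% lower, and the group with the highest had 9.81% higher and 9.01% lower. Vehicle at 48 over 24 h had medians of 0.02 and −0.24 in these same outer groups, the opposite direction. With the ratios centred within bins of GC content, an alternative chosen after the data were seen, 960 coding genes were higher and 1008 lower of 11213, against 721 higher and 1484 lower coding genes without it. Of 315 genes recomputed in this way, 29 crossed 2-fold or moved by over 1.5-fold, and none past 2-fold changed sign. The level mattered too: of 941 genes above 100 FPKM in either library 11.6% were higher and 5.21% lower, and of 1104 genes at 2 FPKM or less 10.7% were higher and 20.9% lower. Of 397 long noncoding RNAs, 12.8% were higher and 15.6% lower.

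Promoter sequences from RefSeq (GRCh38.p14, 250 bases before to 50 after the start) were matched by symbol for 9506 of the 11864 genes, chromosome 8 left out. Both strands were searched for fixed letters, with N for any base. The AP-1 letters TGANTCA stood in 9.31% of the 591 promoters of higher genes, 4.48% of the 1228 of lower genes and 4.52% of all tested, beside 7.76% of all 27305 promoters outside chromosome 8. For the TATA box (TATAAA) the shares were 14% of higher, 6.43% of lower and 5.6% of tested genes, and 12% of all promoters. The CHR letters TTTGAA stood in 7.95% of higher, 17.5% of lower and 9.6% of tested genes, and in 15.4% of all promoters. The E2F letters TTTNNCGC were found in 6.43% of higher, 12.6% of lower and 11% of tested genes (6.9% of all promoters), and the CARE letters TGATGNAA in 2.88%, 1.87% and 1.59% of these sets (3.67% of all promoters). For the NF-κB letters GGNNNTTCC the shares were 24.2% of higher, 23.9% of lower and 23.5% of tested genes, and 20.1% of all promoters, and all 6 tested neutrophil chemokines held them. Among genes at least 4-fold higher (144 promoters), the NF-κB letters stood in 30.6% and the AP-1 letters in 17.4%, and among those at least 4-fold lower (177 promoters) in 25.4% and 6.78%. At 3-fold, the shares in higher and lower genes were 13.5% and 6.14% for AP-1, 18.4% and 8.64% for the TATA box, 9.02% and 20.2% for CHR, and 26.6% and 23.2% for NF-κB. The antioxidant response letters TGACNNNGC stood in 17.4% of higher, 12.1% of lower and 15.4% of tested genes, and in 13.6% of all promoters. A match describes the sequence and does not show a bound site. Shares within lists (chemokines, integrated stress response, mitosis) were counted for lists chosen for their known sites, among members above 1 FPKM in either library. That choice bears on these shares, so they describe the lists and say nothing about the ratios.

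**Figure D5:**
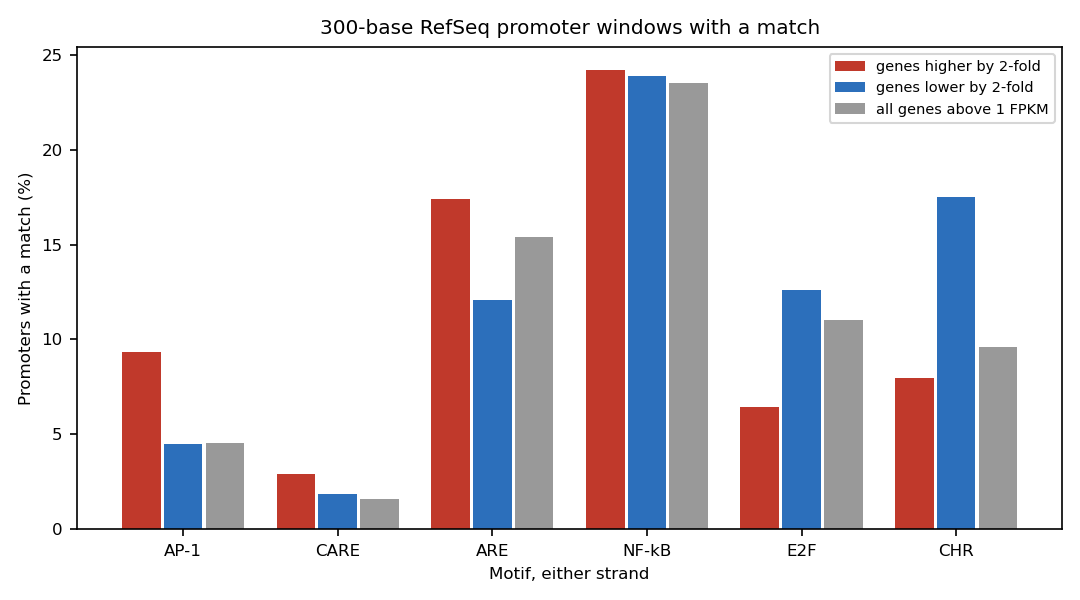
Share of promoters (percent, 300 bases) that hold a match to each set of letters, for genes at least 2-fold higher (591 promoters), at least 2-fold lower (1228) and all genes tested (9506). AP-1 letters stand in 9.31% of higher and 4.48% of lower genes, CHR letters in 7.95% of higher and 17.5% of lower genes.

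The course of these genes over dose and time shows where the late response was new. The comparison of 10 µM UA at 24 h shares no library with that at 48 h. In it 241 genes (2.04%) were higher and 205 (1.73%) lower, and the vehicles alone, 48 over 24 h, had 173 genes (1.46%) higher and 238 (2.01%) lower. Of the 807 genes higher at 48 h, 154 were 2-fold higher at 24 h and 703 had the same sign, their medians being 0.52 at 24 h and 1.44 at 48 h. Of the 1580 lower genes, 119 were 2-fold lower at 24 h and 1370 had the same sign, their medians being −0.37 at 24 h and −1.40 at 48 h. Of all 11821 genes tested at 24 h, 4867 were above 0 and 6931 below 0, beside which the counts of the same sign stand. The sets were chosen by their 48 h values, so the 48 h medians are large by choice. The 5 µM library at 48 h is set against the same vehicle as the 10 µM library, and there 132 genes (1.12%) were higher and 145 (1.23%) lower. In it the 807 genes had a median of 0.40 and the 1580 genes of −0.31. In C4-2B cells after 48 h of 10 µM UA, against their own vehicle, 217 genes (1.75%) were higher and 128 (1.03%) lower. Of the 807 genes, 564 were above 1 FPKM there, and of the 1580 genes 1276 were. Over all 807 genes, expressed there or not, 85 were 2-fold higher (median 0.09). Over all 1580 genes, 25 were 2-fold lower (median −0.01). Counts and medians within the 807 and 1580 genes, at 24 h too, carry no filter on level in the compared libraries. They are thus unlike the counts over all genes, which were made above 1 FPKM, and can include ratios between levels near 0. The mitosis list had a median of −0.01 and the replication list of −0.17 in C4-2B cells, where the neutrophil chemokines had 1.48. These list medians cover the members tested in HCC70 cells, with no filter on their level in C4-2B cells. Among the chemokines, CXCL8 (3.32), CXCL2 (2.46) and CXCL1 (2.19) were past 2-fold there. CXCL5 had 0.77, and CXCL3 and CXCL6 had 0.00, so the list did not move as a block in C4-2B cells. The difference between the lines was not tested.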

How the data were processed

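RNA of HCC70 cells was sequenced after 24 and 48 h with vehicle, 5 or 10 µM UA, 1 library per condition. Per the labels, libraries were made from 1 µg of total RNA with a Tru-Seq RNA kit. Use of strand in the counting is not stated, so overlapping antisense genes are uncertain. The authors deposited FPKM values with 2 decimals, and their processing notes name BWA, Bowtie, Cufflinks and hg38. Versions are not given in the sources used here. Read totals are not given either, so the depth behind a value is unknown and counting error could not be stated.

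The files list 35069 gene IDs. Where a symbol had several IDs their FPKM were added (71 further IDs). Genes above 1 FPKM in either library were kept, and log2 ratios were taken after a pseudocount of 0.1 FPKM. Differences of at least 2-fold were counted. With 1 library per group no test was made. Genes named in the text are 20 with the highest and 20 with the lowest ratio above 5 FPKM, the best known and the 4 most changed members of each list, genes past 2-fold in opposite directions at 24 and 48 h, and marker genes, with readthrough transcripts and near-identical copies left out of the first rule. Genes outside these are named as such. The members, lists and rules were chosen with earlier results of these data known. The alternatives changed the pseudocount (1 or 0.01), the filter (none, or above 5 FPKM), the scaling (3 ways), the comparator and the threshold (1.5- or 3-fold), took the highest ID of a symbol, or centred ratios by GC content. Gene positions and transcript GC content are from GENCODE 44, and promoters from RefSeq. The shares of promoters with a match are counts over genes and carry no error of replication. Counting was tested on simulated data. The work was done in Python 3.11.15 (pandas 2.3.3, numpy 2.4.6, scipy 1.17.1), with figures from matplotlib 3.10.9. The digoxin libraries were not used here, and some genes are not reported here.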

Additional observations from a re-analysis of the deposited data

Results flagged for a closer look

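Of all genes tested and above 5 FPKM in at least 1 of the 4 libraries of vehicle and 10 µM UA, 2 were past 2-fold in opposite directions at 24 and 48 h. RC3H1 (roquin-1), which destabilizes mRNAs of immune genes, was at 6.79 FPKM in 10 µM UA against 2.42 FPKM in vehicle at 24 h (log2 ratio 1.45) and at 1.91 FPKM against 4.35 FPKM in vehicle at 48 h (−1.15). WFDC12, a protease inhibitor of the whey acidic protein family, was at 2.00 FPKM in 10 µM UA against 4.54 FPKM in vehicle at 24 h (−1.14) and at 10.4 FPKM against 2.13 FPKM in vehicle at 48 h (2.24). With 1 library per condition the difference was not tested. The vehicles of the 2 times differed as well, by 0.82 for RC3H1 and −1.06 for WFDC12 on the log2 scale (48 over 24 h).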

How the results depend on the processing

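The counts at 2-fold, 807 higher and 1580 lower, moved by more than 1.5 times in these cases. Without a filter on low values they were 1381 and 2457. Above 5 FPKM the lower count was 912, with a pseudocount of 1 it was 998, and rescaled without mitochondrially encoded genes it was 3311, of 12703 genes. At 1.5-fold 1610 genes were higher and 3330 lower, and at 3-fold 333 were higher and 579 lower. Centring by GC content, an alternative chosen after the data were seen, was limited to coding genes. It gave 1008 lower, against 1484 coding genes without the centring, a change of less than 1.5 times. Of the list medians, that of the mitokine and mTORC1-restraining genes was −0.20 on rescaling without mitochondrially encoded genes (0.62 as deposited). The filter was applied anew there, so the genes that passed were not the same. Against the 24 h vehicle the log2 ratio of CCL5 was 0.17 and that of CYP1A1 was −0.35. Among 3424 recomputed ratios of 315 named genes and 539 medians of 49 lists, these 3 were the ones that changed sign after being past 2-fold (genes) or 1.5-fold (medians). No paired analysis was possible because each condition has 1 library. FPKM are relative, and the median of all genes lay at −0.20.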
